A study of Mus musculus with 12 samples.

Results

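Cdh1, Cldn1, Epha2, Sdc4, Hbegf and Ecm1 are 6 genes for adhesion, cell contact and growth factor signalling, 6 of 57009 gene identifiers in an RNA sequencing table of mouse splenic dendritic cells (DCs). They were chosen because earlier results of these libraries had them higher after culture with alloreactive memory T cells, so their levels there against the other cultures are given as a description. All DCs came from spleens of C57BL/6 (B6) mice in which an injected B16 melanoma line made Flt3 ligand, which raises DC numbers, and T, B and NK cells and macrophages had been depleted with beads. Such DCs are expanded in a tumour-bearing host. After 3 h of culture the DCs were sorted on CD11b and CD11c, and 4 groups of 3 libraries were made. DC only is DCs cultured alone, LPS is DCs with lipopolysaccharide, the endotoxin of bacteria, and SynTem is DCs with syngeneic memory T cells (Tem in the labels) of the B6 strain. AlloTem is DCs with memory T cells of BALB/c origin specific for alloantigen, so the strain of the T cells and their recognition of the DCs cannot be told apart. The title of the series asks how alloreactive memory CD4 T cells act on DCs to start innate inflammation and CD8 T cell priming. Whether replicates were separate mice or cultures is not given. The p-values thus reflect the spread among libraries of this series, part of which may be technical.

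E-cadherin, the product of Cdh1, joins like cells through its outer domains and holds the actin cytoskeleton through catenins; in the skin it anchors Langerhans cells, a kind of DC, to keratinocytes. Claudin-1 seals tight junctions, EphA2 is a receptor tyrosine kinase for ephrin-A ligands on neighbouring cells, and syndecan-4 is a transmembrane heparan sulfate proteoglycan of focal adhesions that also binds growth factors. HB-EGF is made as a membrane protein, is shed by ADAM proteases and activates the EGF receptor. ECM1 is a secreted glycoprotein that binds other matrix proteins such as perlecan.

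The sequence before the start site was held for 4 of the 6 genes in the RefSeq table (GRCm38.p6), Cldn1, Epha2, Sdc4 and Ecm1. The 250 bases before each start were searched on both strands for AP-1 (TGANTCA), the cAMP response element (TGACGTCA), the NF-kB consensus, the STAT element (TTCNNNGAA) and its wider form with 1 more base in the gap, the E-box bound by Snail and Zeb repressors (CAGGTG) and a TATA box (TATAAA). The 3 windows with a match are shown because these genes were high in the same libraries; capitals mark the match.
Sdc4: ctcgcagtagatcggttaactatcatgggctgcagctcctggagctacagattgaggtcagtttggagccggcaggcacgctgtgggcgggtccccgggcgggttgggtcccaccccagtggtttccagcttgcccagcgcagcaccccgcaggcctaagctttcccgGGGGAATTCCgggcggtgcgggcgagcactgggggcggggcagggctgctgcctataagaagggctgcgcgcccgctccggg
Epha2: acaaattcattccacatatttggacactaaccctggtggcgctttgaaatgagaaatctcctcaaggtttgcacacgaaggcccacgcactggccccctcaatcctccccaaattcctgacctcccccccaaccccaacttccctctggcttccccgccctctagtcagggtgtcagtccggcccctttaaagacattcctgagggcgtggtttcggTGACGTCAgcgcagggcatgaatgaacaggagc
Ecm1: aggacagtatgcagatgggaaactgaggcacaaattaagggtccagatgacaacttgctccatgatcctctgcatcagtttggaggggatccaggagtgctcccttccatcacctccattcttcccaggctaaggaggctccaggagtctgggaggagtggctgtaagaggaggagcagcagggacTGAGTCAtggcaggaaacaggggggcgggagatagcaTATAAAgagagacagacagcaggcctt
The Sdc4 window (chr2:164443189-164443438, minus strand; inside the longer GENCODE gene) held an NF-kB consensus that begins 82 bases before the start. The Epha2 window (chr4:141300971-141301220, plus strand) held a cAMP response element 33 bases before the start. The Ecm1 window (chr3:95739570-95739819, minus strand) held an AP-1 match 64 bases and a TATA box 27 bases before the start. These 3 genes thus shared no motif of the 7. Of all 32851 windows of this length in the table, 7.25% held the NF-kB consensus, 1.55% the cAMP response element, 6.75% AP-1 and 12.4% the TATA box. The Cldn1 window (chr16:26371840-26372089, minus strand) held none of the 7 motifs. A match is a stretch of letters, and no binding was measured here.

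Library totals ranged from 13903574 to 21861156 counts, and 14413 genes had enough counts to be tested. The 11 DC markers were detected in every group, with a sum of 9700 to 17400 CPM (read counts scaled to library size by TMM). Batch numbers (1 to 3) were deposited, and in 12 of 12 libraries the batch is also the replicate number. Y-linked transcripts reached 131 to 219 CPM in batch 3 and SynTem 2, and at most 10.2 CPM in the remaining 7 libraries. SynTem 2 differed in this from the rest of its batch. In DC only libraries 1 to 3 they summed to 0, 0 and 208 CPM, so these did not all come from mice of the same sex. In bulk RNA, a change in the number of cells of a type and a change in RNA per cell cannot be told apart.

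Cdh1, a marker of epithelial and Langerhans cell contacts, lies on chromosome 8 from 106603351 to 106670246 (ENSMUSG00000000303; coordinates of GENCODE, build GRCm38, here and below). It measured 32.8, 47.9 and 35.1 CPM in AlloTem libraries 1 to 3 and 5.65, 3.80 and 5.09 CPM in SynTem. It measured 5.82, 9.24 and 2.99 CPM in DC only and 6.72, 7.53 and 3.97 CPM in LPS. All 3 AlloTem libraries stood above the 9 others, the lowest of them 3.55 times the highest of the others (DC only 2). The AlloTem libraries lay within 1.46-fold of each other. On the log2 scale Cdh1 was 2.99 ± 0.39 (SE) higher in AlloTem than in SynTem, and 2.44, 3.49 and 2.67 higher within batches 1, 2 and 3.

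Cldn1, the claudin of skin and gut barriers, lies on chromosome 16 from 26356642 to 26371841 (ENSMUSG00000022512). It measured 29.5, 80.3 and 40.2 CPM in AlloTem and 9.28, 11.3 and 10.5 CPM in SynTem. The other cultures gave 17.7, 15.6 and 15.2 CPM (DC only) and 14.4, 16.1 and 17.7 CPM (LPS). The groups did not overlap between AlloTem and any other culture, and SynTem was the lowest culture, below every DC only and LPS library. The difference of AlloTem from SynTem was 2.27 ± 0.31 on the log2 scale (1.62, 2.78 and 1.88 within batches), larger than that from DC only, 1.63 ± 0.30.

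Epha2, the ephrin-A receptor, lies on chromosome 4 from 141301240 to 141329384 (ENSMUSG00000006445). It measured 42.3, 29.6 and 33.4 CPM in AlloTem, 20.9, 17.9 and 14.8 CPM in SynTem, 16.1, 18.3 and 14.2 CPM in DC only and 26.7, 22.2 and 19.3 CPM in LPS. AlloTem stood above all other libraries, but by a narrow margin: AlloTem 2 was 1.11 times LPS 1. The log2 difference from SynTem was 0.98 ± 0.19 (1, 0.71 and 1.15 within batches), the smallest of the 6 genes.

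Sdc4, the focal adhesion proteoglycan, lies on chromosome 2 from 164424247 to 164443887 (ENSMUSG00000017009). It measured 257.6, 407.5 and 144.4 CPM in AlloTem, 41.4, 28.0 and 45.2 CPM in SynTem, 66.7, 65.6 and 27.7 CPM in DC only and 105.8, 99.4 and 103.5 CPM in LPS. AlloTem was highest, LPS second with nearly equal libraries, and DC only and SynTem overlapped below them. The log2 difference of AlloTem was 2.82 ± 0.41 from SynTem (2.62, 3.84 and 1.67 within batches) and 1.39 ± 0.39 from LPS (1.28, 2.03 and 0.48 within batches).

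Hbegf, the EGF receptor ligand, is on chromosome 18 (ENSMUSG00000024486). It had 172, 425 and 90 counts in AlloTem, or 8.16, 21.1 and 4.25 CPM. In the 9 other libraries it had 0 to 12 counts. SynTem 1 had 0 counts, which allows up to 0.223 CPM (3 counts, counting error only), and SynTem 3 had the most, 0.711 CPM. Hbegf was thus near the limit of detection without alloreactive T cells, and the lowest AlloTem library was 5.97 times the highest other library. The log2 difference from SynTem was 4.94 ± 0.86 (4.11, 4.72 and 1.97 within batches, after adding 0.5 CPM), the largest of the 6 genes and the least precise.

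Ecm1, the matrix glycoprotein, lies on chromosome 3 from 95734147 to 95739569 (ENSMUSG00000028108). It measured 28.3, 8.82 and 24.6 CPM in AlloTem, 2.82, 4.62 and 4.56 CPM in SynTem, 1.26, 1.48 and 2.18 CPM in LPS and 0.375, 0.685 and 1.18 CPM in DC only. The 4 cultures formed a ladder with no overlap between any neighbours. Among the 6 genes, Ecm1 was the one with every SynTem library above every LPS library. The log2 difference of AlloTem from SynTem was 2.36 ± 0.46 (3.12, 0.86 and 2.31 within batches) and from DC only 4.75 ± 0.53. Within its exons, 2.5% of bases are shared with the microRNA gene Mir7014 on the same strand.

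**Figure D1:**
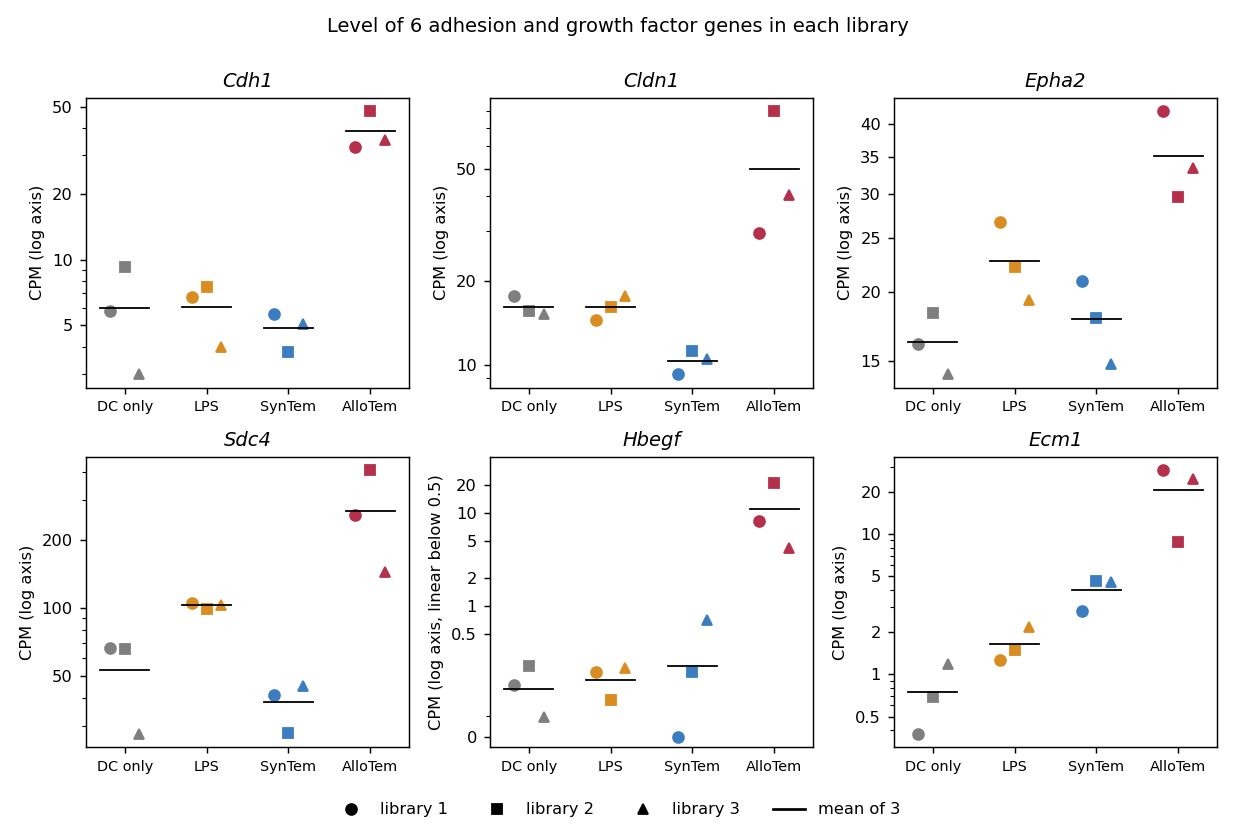
CPM of the 6 genes (log axes; for Hbegf linear below 0.5) in each of the 3 libraries of DC only, LPS, SynTem and AlloTem; points are libraries, lines group means. For each gene the 3 AlloTem points lie above the 9 others, and for Ecm1 the 4 groups follow each other without overlap.

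Per kilobase of exon, the scale on which genes can be set beside each other, Sdc4 was the most abundant of the 6 in every culture, at 20.9 ± 8.74 in DC only and 106 ± 51.8 CPM per kilobase in AlloTem (SD, n = 3). In DC only, Epha2 (3.47 ± 0.441), Cldn1 (3.34 ± 0.274) and Cdh1 (1.32 ± 0.685) followed, while Ecm1 (0.295 ± 0.160) and Hbegf (0.0476 ± 0.0255) were lowest. In AlloTem, Cldn1 (10.3 ± 5.53), Cdh1 (8.44 ± 1.78), Ecm1 (8.17 ± 4.11) and Epha2 (7.51 ± 1.40) overlapped within their spread, and Hbegf reached 2.31 ± 1.82 CPM per kilobase.

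All 6 genes passed the filter on low counts; Hbegf passed it only through its AlloTem libraries. All 6 were higher in AlloTem without overlap than in SynTem, DC only and LPS, where 7.09%, 9.35% and 5.52% of all genes were. By edgeR's quasi-likelihood test (Benjamini-Hochberg adjusted p under 0.05 over all genes) 3 of 6 were called higher against SynTem (Cdh1, Cldn1 and Sdc4), where 0.153% of all genes were. Against DC only 6 of 6 were called (1.35% of all genes were called higher), and against LPS 4 of 6, without Sdc4 and Epha2 (0.395%). The genes were chosen from these comparisons, which share the AlloTem libraries, so the counts describe the choice. The median log2 difference of the 6 was 2.59 from SynTem, 2.51 from DC only and 2.15 from LPS, beside medians of -0.01, 0 and 0 over all genes. With the replicate number as a block 5 of 6 passed against SynTem, Epha2 and Hbegf added (0.465% of all genes were called higher by that fit). The calls depended on single libraries: against SynTem 0 passed without SynTem 1, SynTem 2 or SynTem 3, and 2 passed without DC only 2, without any 1 of the LPS libraries or without AlloTem 1. Against DC only 1, 2 and 3 passed without DC only 1, 2 and 3, and 4 without AlloTem 1. Against LPS 0 passed without LPS 1, LPS 2 or LPS 3, and 2 without DC only 1, DC only 2, SynTem 2 or AlloTem 2. With SynTem 2 and DC only 2 both left out, 0, 1 and 1 of the 6 passed against SynTem, DC only and LPS. The direction was the same for all 6 genes in each of these fits.

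**Figure D2:**
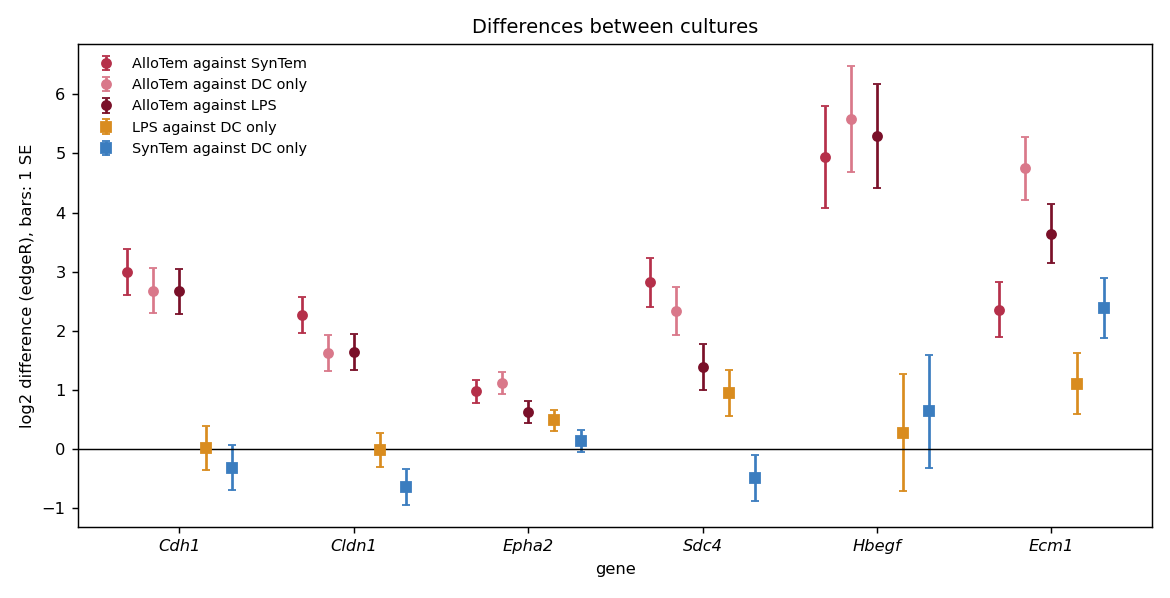
Log2 differences between cultures for the 6 genes (edgeR, all 12 libraries; bars are 1 SE); circles are comparisons with AlloTem, squares those without it. Differences with AlloTem are positive for each gene (0.63 to 5.58), while of the squares those of Ecm1 are the highest (1.11 and 2.39).

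The LPS and DC only libraries asked whether an innate stimulus moves these genes at the same time point. This comparison holds no AlloTem library, although both groups served as comparators when the genes were chosen. Sdc4, Epha2 and Ecm1 were higher in each LPS library than in any DC only library, and 5.36% of all genes were higher in this way. Sdc4 averaged 103 ± 3.26 against 53.3 ± 22.2 CPM (log2 0.95 ± 0.39; 0.66, 0.6 and 1.88 within batches). Epha2 averaged 22.7 ± 3.75 against 16.2 ± 2.06 CPM (log2 0.49 ± 0.18; 0.71, 0.27 and 0.43 within batches). Ecm1 averaged 1.64 ± 0.483 against 0.745 ± 0.403 CPM (log2 1.11 ± 0.51; 1, 0.74 and 0.68 within batches). The adjusted p was 0.999 for each of the 3 (edgeR), so none of these differences passed. Cdh1 (log2 0.02 ± 0.37) and Cldn1 (-0.01 ± 0.29) differed by less than their SE (adjusted p = 1, edgeR), and Hbegf differed by 0.28 ± 0.99 at 2 to 6 counts a library. By edgeR 0 of 6 passed, as did 0% of all genes. At an unadjusted p under 0.05 (edgeR) there were 2 of the 6 (Sdc4 and Epha2) and 3.68% of all genes. DESeq2 and limma voom called 0 of 6. Hbegf was tested only through its AlloTem libraries, so it adds nothing to these counts.

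The SynTem and DC only libraries compared DC cultures with and without memory T cells of the DCs' own strain. No AlloTem library enters here, but both groups served as comparators when the genes were chosen. That choice favours genes with low values in them. Ecm1 stood apart: 4 ± 1.02 CPM against 0.745 ± 0.403 CPM, a log2 difference of 2.39 ± 0.51 (1.92, 2.11 and 1.6 within batches, 3 of 3 higher). T cell markers were higher in the same comparison (186, 435 and 357 CPM in SynTem, 26.2 to 51.5 CPM in DC only) and had the order of Ecm1 over the SynTem libraries; their part in the difference was not tested. The edgeR adjusted p was 0.132, so the difference did not pass, and it was 0.101 with the replicate block; DESeq2 called it (adjusted p = 0.000654) and limma voom did not. Ecm1 kept a difference of 2.09 to 2.89 when each library was left out in turn, with edgeR adjusted p between 0.0859 and 0.541. Of all genes, 7.42% were higher in SynTem without overlap, and 0.0763% were called higher. Cldn1 was lower in all 3 SynTem libraries (10.4 ± 1 against 16.2 ± 1.33 CPM, log2 -0.64 ± 0.30, edgeR adjusted p = 0.606), where 6.83% of all genes were lower without overlap. The other 4 genes overlapped between SynTem and DC only. Cdh1 differed by -0.31 ± 0.38, Sdc4 by -0.48 ± 0.39 and Epha2 by 0.14 ± 0.19 in log2 units. These 3 did not pass edgeR (adjusted p = 0.885, 0.806 and 0.900). Hbegf differed by 0.64 ± 0.96 at 0 to 12 counts a library, and it was tested only through its AlloTem libraries. For Cdh1 and Sdc4 batch 3 went the other way (0.68 and 0.7). Without DC only 2 the Cdh1 difference was 0.14, and with SynTem 2 left out as well 0.29. Without SynTem 3 that of Hbegf was -0.42. By edgeR 0 of 6 passed, with 1 of 6 (Ecm1) at an unadjusted p under 0.05, where 8.24% of all genes were. Hbegf adds nothing to these counts, because its few reads here could not decide.

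Within AlloTem the genes did not share 1 order of libraries. Cdh1, Cldn1, Sdc4 and Hbegf were highest in AlloTem 2, by 2.72-fold over the lowest library for Cldn1, 2.82-fold for Sdc4 and 4.96-fold for Hbegf. Ecm1 and Epha2 were lowest in AlloTem 2, with AlloTem 1 3.21-fold and 1.43-fold above it.

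Transcripts of other cell types were also present. For 12 T cell markers the sum of CPM (T cell receptor and CD3 chains, Cd4, Cd2, Cd5, Cd28, Lck and Zap70; 12 of 12 tested) was 26.2 to 51.5 CPM in DC only, 28.3 to 105 CPM in LPS, 186, 435 and 357 CPM in SynTem and 167, 76.6 and 77.5 CPM in AlloTem. All 3 SynTem sums lay above those of AlloTem, whereas each of the 6 genes was higher in AlloTem; for Ecm1 alone of the 6, every SynTem library was also above every DC only library. Markers of basophils and mast cells went with AlloTem: Cpa3, Mcpt8, Ms4a2, Fcer1a and Cd200r3 (5 of 5 tested) summed to 122, 15.8 and 33.2 CPM in AlloTem libraries 1 to 3. Their sum was 0.734 to 3.65 CPM in DC only, 0.672 to 6.47 CPM in LPS and 2.15 to 13.3 CPM in SynTem. Ecm1 and Epha2 had the order of this sum in AlloTem, highest in library 1 and lowest in library 2. The sums of T cell, NK cell (429, 32.6 and 42.1 CPM) and neutrophil markers (108, 20.7 and 21.6 CPM) had that order too. Other marker sums did not have it. Cdh1, Cldn1, Sdc4 and Hbegf were highest in library 2. So were the sums of DC markers (12200, 17400 and 10400 CPM) and B cell markers (17.4, 26.1 and 16.5 CPM). Cd74 and H2-Ab1 made up most of the DC sum (means of 7180 and 3040 CPM in AlloTem), so its order is mainly theirs. The other DC markers did not all have this order. Of the single basophil and mast cell markers, Cpa3 (47.3, 4.56 and 23.3 CPM) and Fcer1a had the order of Ecm1. Mcpt8 (52.5, 7.73 and 5.38 CPM), Ms4a2 and Cd200r3 were lowest in library 3. Erythroid and platelet markers (8 of 10 tested) summed to 51.0 to 60.5 CPM in AlloTem, 21.2 to 33.3 CPM in SynTem, 45.8 to 83.6 CPM in LPS and 9.93 to 45.7 CPM in DC only. B cell markers (4 of 5 tested) summed to 16.5 to 26.1 CPM in AlloTem and 10.3 to 19.3 CPM in the others. The part of these cells in the 6 genes was not tested.

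**Figure D3:**
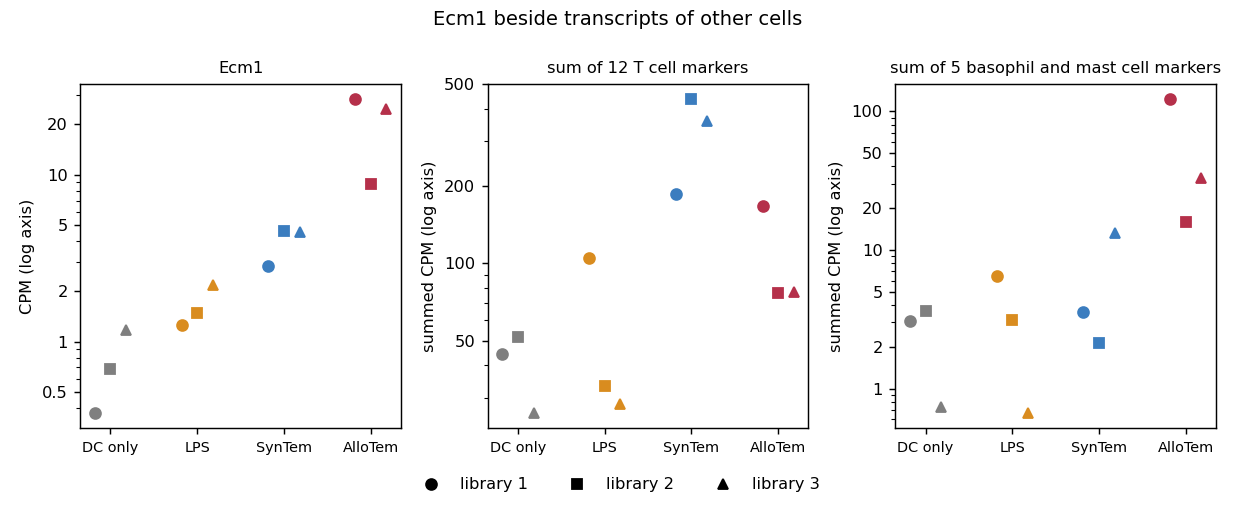
Ecm1 (CPM), the sum of 12 T cell markers and the sum of 5 basophil and mast cell markers (summed CPM), each on a log axis, in the 3 libraries of each culture. T cell markers are highest in SynTem (186 to 435 CPM), basophil and mast cell markers in AlloTem (15.8 to 122 CPM). In AlloTem both sums, though not each marker, have the order of Ecm1 over the libraries.

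Of the epithelial cell markers mainly Epcam was detected, at a mean of 3.95 CPM in AlloTem and 6.48 CPM in SynTem. Of the melanocyte markers (for B16 cells) mainly Mitf was detected. Of 11 epithelial markers 3 were tested; the keratins Krt5, Krt14 and Krt19 had 0 counts in every group. The summed level was 3.08 to 10.8 CPM in AlloTem, 3.49 to 11.1 in SynTem, 3.14 to 9.74 in LPS and 1.77 to 14.8 CPM in DC only. The groups thus overlapped. Cdh1 did not have the order of this sum over the libraries of any group. In DC only libraries 1 to 3 the sum was 2, 1.77 and 14.8 CPM, and Cdh1 was 5.82, 9.24 and 2.99 CPM. Of 7 melanocyte markers, Tyr, Mlana, Tyrp1 and Sox10 had 0 counts in every group, and the sum was 3.84 to 5.61 CPM in AlloTem and 2.15 to 7.29 CPM in SynTem. Mitf made up most of it, at a mean of 4.21 CPM in AlloTem and 3.83 CPM in SynTem. Endothelial and stromal markers (4 of 9 tested, Col3a1 and Dcn at 0 in every group) summed to 27.0 to 37.2 CPM in AlloTem and 25.4 to 47.7 CPM in SynTem. Macrophage markers (4 of 6 tested) summed to 35.5 to 124 and 34.1 to 144 CPM, neutrophil markers (5 of 5) to 20.7 to 108 and 8.04 to 135 CPM, and NK cell markers (4 of 4) to 32.6 to 429 and 56.3 to 296 CPM in AlloTem and SynTem. Neutrophil markers were 7.63 to 13.6 CPM in DC only, below every AlloTem library (108, 20.7 and 21.6 CPM), and 19 to 123 CPM in LPS. The part of these cells in the 6 genes was not tested.

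Relatives of the 6 genes were followed in 14 lists of 221 distinct genes, of which 136 were tested. Between AlloTem and SynTem 1 of 136 rose, Plscr1, and 0 fell (edgeR, which called 0.153% of all genes higher; 21 at an unadjusted p under 0.05). DESeq2 called 6, Plscr1 among them, of which Flt3l was lower in AlloTem (10.2 against 15.5 CPM in SynTem). Limma voom called 2, Hs3st3b1 and Osm, without Plscr1. The median log2 difference of the 136 was 0.03, beside -0.01 over all genes. Against DC only 9 of the 136 rose and against LPS 3 (1.35% and 0.395% of all genes were called higher), and 0 fell in either.

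Of 12 tested cadherins, catenins and nectins 0 were called and 7 were positive (median 0.08). Nectin2, an adhesion receptor of the immunoglobulin family, differed by 1.30 ± 0.40 (11.4 against 4.59 CPM, edgeR adjusted p = 0.283), and Ctnnd1, the p120 catenin that steadies E-cadherin at the membrane, by -0.49 ± 0.36 (edgeR adjusted p = 0.706). Cdh5, the endothelial cadherin, averaged 3.66 and 1.81 CPM. Repressors that bind E-boxes of the E-cadherin gene gave 0 calls (5 tested, median 0.11), among them Snai1 at 6.44 in AlloTem against 4.17 CPM in SynTem, and Zeb1 at 66.9 against 64.5 CPM. Snai1 was 18.7 CPM in LPS and 9.53 CPM in DC only; against LPS it was lower in all 3 AlloTem libraries (log2 -1.54 ± 0.40, edgeR adjusted p = 0.171, 0.0471 with the replicate block). The lymphocyte receptors for E-cadherin were also measured: Itgb7, a chain of the integrin that binds it, averaged 723 CPM in AlloTem and 767 CPM in SynTem, Itgae 2.62 and 2.93 CPM and Klrg1 7.46 and 6.19 CPM, with 0 of 3 called.

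Other tight junction genes were mostly too low to test. Of 31 claudins and partners 11 were tested and 0 called (median -0.06). F11r, a junctional adhesion molecule, averaged 11.9 and 8.67 CPM in AlloTem and SynTem, Marveld2, which seals corners between 3 cells, 5.81 and 7.34 CPM, and Cldn12 31.4 and 26.5 CPM. Of 9 tested heparan sulfate proteoglycans 0 were called (median 0.08). Hspg2, the matrix proteoglycan perlecan, averaged 1.93 and 0.680 CPM, and Srgn, the granule proteoglycan of blood cells, 563 and 346 CPM.

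Among 14 tested enzymes that build or cut heparan sulfate, Hs3st3b1, a 3-O-sulfotransferase, averaged 27.2 ± 3.20 CPM in AlloTem, 9.31 ± 2.56 in SynTem, 8.18 ± 3.60 in LPS and 5.63 ± 1.23 CPM in DC only (SD, n = 3 each). It rose against DC only (log2 2.27 ± 0.31, edgeR adjusted p = 0.00647) and against LPS (1.73 ± 0.30, edgeR adjusted p = 0.0408). Against SynTem the difference of 1.55 ± 0.30 had edgeR adjusted p = 0.0858, and 0.0265 with the replicate block. Hs6st1, a 6-O-sulfotransferase, rose against DC only (100 against 58.5 CPM, log2 0.78 ± 0.16, edgeR adjusted p = 0.0362).

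Eph receptors and ephrins other than Epha2 gave 4 and 4 tested genes and 0 calls. Ephb2 averaged 12.9 and 8.39 CPM in AlloTem and SynTem, Ephb6 1.39 and 2.10 CPM, and the ligand Efna2 5.86 and 2.47 CPM (log2 1.24 ± 0.44, edgeR adjusted p = 0.372). EGF family ligands other than Hbegf gave 5 tested genes and 0 calls: Nrg1 averaged 1.83 ± 1.33 and 7.67 ± 12.8 CPM (1 SynTem library at 22.5 CPM), Egf 3.83 and 1.66 CPM and Nrg2 16 and 15.7 CPM. Egfr, the receptor of HB-EGF, was low, at 2.29 ± 0.248 CPM in AlloTem, 1.72 ± 0.768 in SynTem, 1.35 ± 0.624 in LPS and 3.51 ± 1.19 CPM in DC only. Erbb4, its other receptor, had 0 counts in all 4 groups, which allows up to 0.223 CPM in the shallowest library. Errfi1, an inhibitor of EGF receptor kinases, rose against DC only (28.0 against 12.5 CPM, log2 1.16 ± 0.23, edgeR adjusted p = 0.0296), and differed from SynTem by 0.67 ± 0.22 (edgeR adjusted p = 0.339). Of the proteases that can release HB-EGF, Adam17 averaged 189 ± 40.4 CPM in AlloTem and 193 ± 65.5 CPM in SynTem, and Adam10 134 ± 20.6 and 141 ± 13.3 CPM. Of the 10 tested sheddases and partners 0 were called.

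Of 14 tested matrix glycoproteins and partners of ECM1, Plscr1, a phospholipid scramblase that binds ECM1, rose. It averaged 55.7 ± 20.2 CPM in AlloTem, 20.1 ± 1.51 in SynTem, 20.4 ± 4.68 in LPS and 14.1 ± 1.78 CPM in DC only (SD, n = 3 each). The log2 difference was 1.47 ± 0.24 from SynTem, 1.98 ± 0.24 from DC only and 1.45 ± 0.24 from LPS (edgeR adjusted p = 0.0484, 0.00438 and 0.0313), and within batches 1.2, 2.04 and 0.94 from SynTem. Limma voom called it against DC only and LPS but not against SynTem. Fn1, fibronectin, averaged 90.4 ± 51.5 CPM with alloreactive and 233 ± 227 CPM with syngeneic T cells, and did not pass (log2 -1.37 ± 0.72, edgeR adjusted p = 0.582). Of 25 integrins and immunoglobulin adhesion receptors 0 were called (median 0.01), with Icam1 at 779 and 396 CPM and Cd44 at 1340 and 982 CPM.

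The list of other secreted growth factors had the highest median of the 14 lists. Its 17 tested genes had a median log2 difference of 1.11 between AlloTem and SynTem, 11 of them positive, with 0 called by edgeR. DESeq2 called Osm and Pgf higher and Flt3l lower (10.2 CPM in AlloTem, 15.5 CPM in SynTem). Limma voom called Osm. SynTem against DC only gave a similar median of 1.16, with 14 of the 17 positive and 0 called by edgeR. There DESeq2 called Csf1, Flt3l, Lif and Osm higher in SynTem. In AlloTem 5 rose against DC only by edgeR: Osm, Lif, Csf1, Vegfa and Pgf. Osm and Lif are cytokines that signal through gp130, Csf1 is the macrophage growth factor, and Vegfa and Pgf are vascular factors. Osm averaged 44.0 CPM in AlloTem, 9.24 in SynTem, 4.99 in LPS and 2.95 CPM in DC only, and rose against DC only and LPS (log2 3.9 ± 0.47 and 3.14 ± 0.45, edgeR adjusted p = 0.00438 and 0.0159). Against SynTem its difference was 2.25 ± 0.44 (edgeR adjusted p = 0.0857). Csf1 averaged 19.8 CPM in AlloTem and 16.2 CPM in SynTem, beside 4.09 CPM in DC only, and Lif 10, 3.55 and 0.198 CPM. T cells and basophils also make cytokines of this list. The basophil and mast cell sum was highest in AlloTem, as were Osm and Lif, while the T cell sum was highest in SynTem. The part of these cells in this list was not tested.

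**Figure D4:**
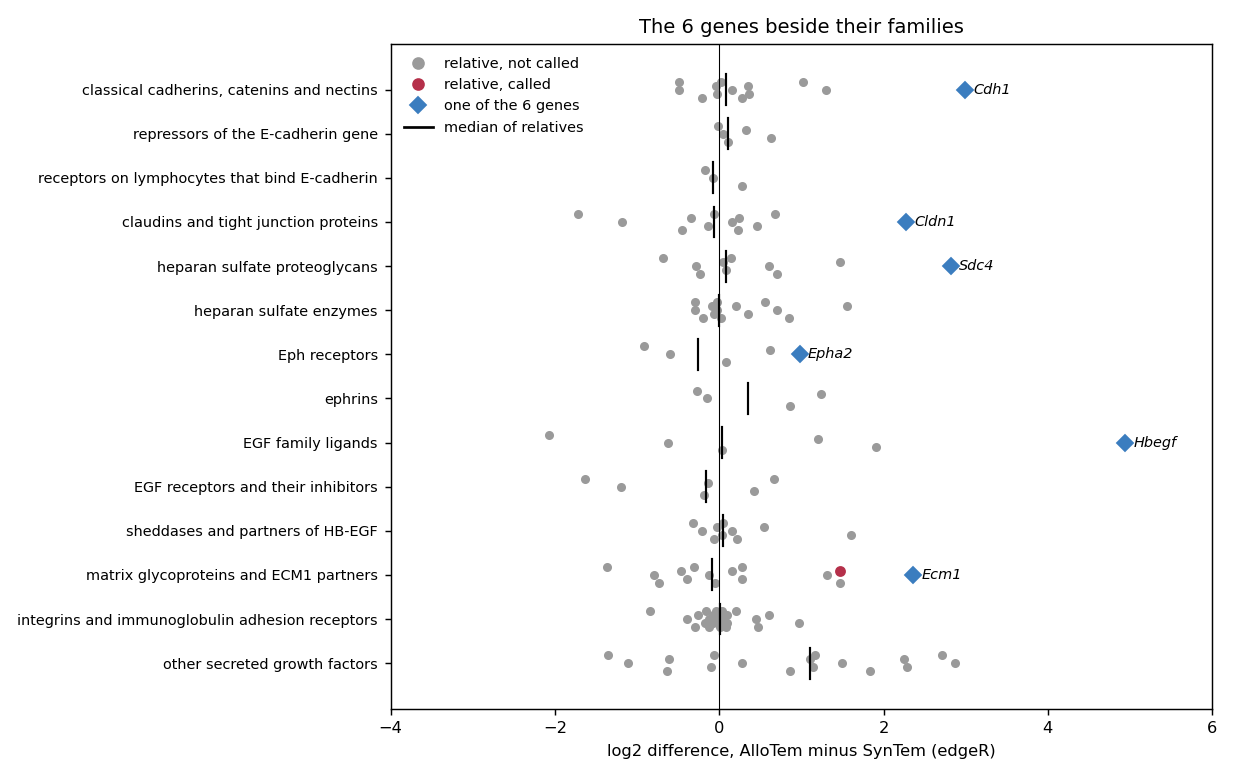
Log2 difference of AlloTem minus SynTem (edgeR) for the 136 tested relatives in 14 lists (circles; red where called), with each list's median as a line and the 6 genes as diamonds beside their own family. The medians of 13 lists lie between -0.26 and 0.36 and that of other growth factors at 1.11, while the 6 genes, chosen for this difference, lie between 0.98 and 4.94.

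The genes most like each of the 6 were taken by Pearson correlation of log2 CPM over the 12 libraries, among 9713 tested genes of at least 5 CPM. The libraries share culture and batch, so these values describe likeness only. For Cdh1 they included Iqsec2 and Tpm3-rs7 (r = 0.968 and 0.946), and for Cldn1 Rcl1 and Mon1b (0.959 and 0.945). For Hbegf they included Cited2, a transcriptional regulator that competes with HIF-1 for its coactivator (0.963), and D16Ertd472e (0.951). Cited2 averaged 263 CPM in AlloTem and 88.9 to 114 CPM elsewhere. For Sdc4 they were Cdkn1a, the p21 cell cycle inhibitor, Csrnp1 and Rnf19b (0.961, 0.957 and 0.954); Cdkn1a followed its order of cultures, with 954, 448, 319 and 208 CPM in AlloTem, LPS, DC only and SynTem. For Epha2 they were Cnot4, Sinhcaf and Scin (0.942, 0.938 and 0.919). For Ecm1 they were Relt, Nfil3 and Cish (0.935, 0.918 and 0.913). Cish, a feedback inhibitor of STAT5 signalling, averaged 258 CPM in AlloTem, 38.8 in SynTem, 3.10 in LPS and 1.83 CPM in DC only, the same order as Ecm1, and Nfil3 200, 63.6, 38.3 and 24.5 CPM.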

How the data were processed

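RNA was measured in 12 libraries (TruSeq RNA kit, per the labels' protocols). The authors deposited raw counts per Ensembl gene identifier, with no normalization; per the submitters' processing notes they used the genome build mm10, while aligner, counter and strand setting were not stated in the sources at hand. A second deposited table gives each library a batch number. Symbols, places and exon lengths came from GENCODE M21 (GRCm38), matched for 52028 of 57009 identifiers; promoter sequences are RefSeq's.

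Genes passed filterByExpr (minimum count 10, minimum total 15). Counts were scaled by TMM and fitted by robust quasi-likelihood in edgeR 4.0.16 under R 4.3.3, all 12 libraries in 1 model with a mean for each culture, with p-values adjusted over all genes of a comparison. The SE is the log2 difference divided by the square root of F. Alternatives used limma 3.58.1 and DESeq2 1.42.0. For ratios within batches 0.5 CPM was added to both values, and log2 CPM for likeness had a prior count of 2. Scripts were tested on simulated counts.

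The 6 genes and the lists were chosen with earlier results of these data known. Named relatives were those called in any comparison and up to 4 per list (mean of at least 1 CPM) with the largest difference between AlloTem and SynTem; not all are described. Egfr, Erbb4, Adam10 and Adam17 were given as receptor and proteases of HB-EGF, chosen after their values were seen where the rule did not name them. Up to 3 most alike genes are named for each of the 6; 1 result is not reported here.

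Libraries with the same deposited batch number were treated as pairs in the fit with the replicate block. Deviations from group means correlated at a median of 0.247 over 18 pairs with the same number (range -0.25 to 0.63, 12 above 0.1) and -0.201 over other pairs. Replicates of a group differed beyond sampling noise in all 12 pairs (chi-square per degree of freedom 5.82 to 73.0). Counts without molecular identifiers include PCR copies, so the limit for a count of 0 covers counting error only.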

Additional observations from a re-analysis of the deposited data

How the results depend on the processing

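Of the 6 genes, 3 were called between AlloTem and SynTem; DESeq2 called 6, the fit with the replicate block 5, and 0 were called with only the 6 libraries compared or with SynTem 2 and DC only 2 both left out. Leaving out single libraries gave 0 to 4. Between AlloTem and DC only the count of 6 became 3 with only the 6 libraries compared and 1 with SynTem 2 and DC only 2 left out (1 to 6 without single libraries). Between AlloTem and LPS the count of 4 became 1 by limma voom, 0 with only the 6 libraries compared and 1 with those 2 libraries left out (0 to 3 without single libraries). Between SynTem and DC only DESeq2 called 1 of 6 where edgeR called 0; without single libraries edgeR called 0, as between LPS and DC only. Fits of fewer libraries have fewer residual degrees of freedom; other causes were not tested. The replicate block changed no other call of the 6 genes. In the 3 comparisons with AlloTem no direction changed under any of the 22 alternatives.

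Small differences without AlloTem changed sign. Between LPS and DC only, Cdh1 ranged from -0.31 (without DC only 3) to 0.47, Cldn1 from -0.08 to 0.06 and Hbegf from -0.11 (without DC only 3) to 0.69 without single libraries, and Cldn1 was 0.01 with a filter at a mean of 5 CPM and 0 with Y-linked transcripts as a covariate. Between SynTem and DC only, Cdh1 was 0.14 with that covariate, 0.29 with SynTem 2 and DC only 2 left out and -0.64 to 0.14 without single libraries, and Hbegf was -0.42 to 1.17.

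Over all genes the count of 24 between AlloTem and SynTem was 0 to 318 under other settings and 3 to 47 without single libraries. That of 253 between AlloTem and DC only was 16 to 677 and 42 to 323, that of 65 between AlloTem and LPS 9 to 288 and 9 to 67, that of 0 between LPS and DC only 0 to 11 and 0 to 1, and that of 13 between SynTem and DC only 1 to 255 and 0 to 56. Depth limits Hbegf outside AlloTem, where libraries held 0 to 12 counts.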
